A study of Mus musculus with 11 samples.

Results

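The regulators of G protein signaling described here are 8 genes of the RGS family: Rgs1, Rgs3, Rgs10, Rgs13, Rgs14, Rgs16, Rgs18 and Rgs19. They were taken by gene symbol from a table of 48593 mouse genes measured in germinal center B cells. All 8 were in the table, and all 8 had a mean of at least 10 normalized reads and entered the tests. RNA came from spleen B cells sorted as B220+, PNA+ and CD95+ on day 12 after an injection of sheep red blood cells into the peritoneum. The 5 WT libraries came from Crebbp+/+;Ep300+/+;Cg1cre/+ mice, which by their labels were littermates from crosses of Crebbp+/- animals. The 3 CBP-KO libraries came from Crebbpfl/fl;Ep300+/+;Cg1cre/+ mice, and the 3 p300-KO libraries from Crebbp+/+;Ep300fl/fl;Cg1cre/+ mice. CBP and p300 are the paralogous lysine acetyltransferases encoded by Crebbp and Ep300. All 3 groups carried the Cg1 Cre allele, which is driven from the immunoglobulin gamma 1 constant region locus and acts in germinal center B cells. The labels make no WT animal a littermate of the p300-KO animals, and there the cross and the loss of Ep300 cannot be told apart. Age, sex, litter and batch were not given.

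Chemokine receptors such as CXCR4 and CXCR5 couple to heterotrimeric G proteins of the Gi class, which are switched on when the alpha subunit binds GTP. RGS proteins accelerate GTP hydrolysis on the alpha subunit, which ends the signal and limits how strongly a cell migrates toward its ligand. In germinal centers CXCR4 holds B cells in the dark zone, where they divide and mutate their antibody genes, and CXCR5 draws them to the light zone, where they are selected. The 8 genes fall into 3 subfamilies: the small R4 proteins Rgs1, Rgs3, Rgs13, Rgs16 and Rgs18, the R12 proteins Rgs10 and Rgs14, and the RZ protein Rgs19.

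Rgs13 and Rgs10 had lower transcript levels in both knockouts, as did their relatives Rgs2, which lies beside Rgs13 on chromosome 1, and Rgs9. Each comparison used the same 5 WT libraries, so the results of the knockouts are not independent of each other. The 250 bases upstream of the RefSeq start of these 4 genes, the tested RGS genes called lower in both knockouts, are shown to let their start regions be compared. Each is written on the gene's own strand, the minus strand in all 4 cases, in the coordinates of GRCm38.p6: chr1:144177373-144177622 for Rgs13, chr1:144004150-144004399 for Rgs2, chr7:128418173-128418422 for Rgs10 and chr11:109298182-109298431 for Rgs9. Capitals mark matches on either strand to the cAMP response element TGACGTCA or its core TGACG, which is contained in it, the octamer ATGCAAAT or the E-box CAGNTG.
Rgs13: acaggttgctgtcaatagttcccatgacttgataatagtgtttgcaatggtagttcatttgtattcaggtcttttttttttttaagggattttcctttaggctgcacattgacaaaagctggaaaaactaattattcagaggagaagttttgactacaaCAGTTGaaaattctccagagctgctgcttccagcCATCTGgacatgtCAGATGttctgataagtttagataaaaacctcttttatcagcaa
Rgs2: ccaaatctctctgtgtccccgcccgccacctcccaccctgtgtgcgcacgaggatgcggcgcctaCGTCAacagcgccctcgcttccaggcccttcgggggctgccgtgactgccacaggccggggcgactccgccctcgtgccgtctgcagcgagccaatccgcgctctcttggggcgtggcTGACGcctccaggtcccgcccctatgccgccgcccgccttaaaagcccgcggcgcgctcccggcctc
Rgs10: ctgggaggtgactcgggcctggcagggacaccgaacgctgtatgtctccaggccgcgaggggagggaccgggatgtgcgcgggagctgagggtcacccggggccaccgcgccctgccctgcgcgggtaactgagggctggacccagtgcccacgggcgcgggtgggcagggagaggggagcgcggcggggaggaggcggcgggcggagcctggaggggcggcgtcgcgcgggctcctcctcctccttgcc
Rgs9: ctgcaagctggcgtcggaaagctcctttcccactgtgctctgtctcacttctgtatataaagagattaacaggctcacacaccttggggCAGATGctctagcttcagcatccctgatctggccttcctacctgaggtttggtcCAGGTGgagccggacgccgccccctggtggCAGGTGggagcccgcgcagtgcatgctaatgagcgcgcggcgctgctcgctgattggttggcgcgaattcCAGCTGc

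Rgs13 and Rgs9 shared the E-box as their only motif, and Rgs2 and Rgs10 held none of it. Rgs13 held 3 matches to CAGNTG, beginning 91, 57 and 44 bases before the start, and Rgs9 held 4, beginning 161, 107, 77 and 7 bases before it. Rgs2 held 2 matches to TGACG, beginning 185 and 67 bases before the start, and Rgs10 held no match to any of them. The Rgs10 window lies inside the GENCODE M21 span of its gene (128373621 to 128418758). It therefore does not cover the bases before the upstream end of that span. Of 32851 windows of the same length, 44.8% held CAGNTG and 3.25% held 3 or more matches. TGACG was held by 17.8% of windows, with 3.90% holding 2 or more, TGACGTCA by 1.55% and ATGCAAAT by 1.60%. The share of G and C was 36% in the Rgs13 window, a value reached or undercut by 6.24% of windows. It was 59.6% for Rgs9, 72.4% for Rgs2 and 76.4% for Rgs10, against a median of 52.4%. These motifs were not particular to the 4 genes. CAGNTG was also held by a window of Rgs3, Rgs19 and Rgs12 and by that of Rgs4 (2 matches), genes not called lower in either knockout. Rgs4 held 2 matches to TGACG, as Rgs2 did, and 1 to ATGCAAAT, and a window of Rgs12 held 1 match to TGACG. The Rgs16 window held no match. These matches describe letters in the window and not binding. RefSeq entries were matched for 5 of the 8 genes by symbol, with none for Rgs1, Rgs14 and Rgs18.

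The libraries held from 53550726 to 132861266 recovered reads. Ep300 was at 19310 to 22498 normalized reads in WT and 13773 to 14829 in p300-KO (log2 difference -0.55, limma adjusted p = 0.000150). Crebbp was at 7984 to 9584 in WT and 7541 to 8606 in CBP-KO (log2 difference -0.10, limma adjusted p = 0.459), so its level did not check the CBP-KO label. All 13 germinal center B cell markers, Bcl6 and S1pr2 among them, passed the filter, and their summed level was at least 866506 in every library. By Xist and Y-linked transcripts, 6 libraries held Xist, 4 held Y-linked transcripts (WT_41, WT_288, CBP-KO_1 and p300-KO_287), and p300-KO_18 held both. WT_46 held the highest summed level of macrophage markers. The labels name separate animals only by number, and p-values measure the spread between these libraries.

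Differences between groups were tested with limma on log2(value + 1) over 16515 genes, and a gene was called at a Benjamini-Hochberg adjusted p below 0.05. In CBP-KO against WT, 3 of the 8 RGS genes were called lower (Rgs10, Rgs13 and Rgs14), beside 4.88% of all genes tested, and 1 was called higher (Rgs18), beside 3.48%. In p300-KO against WT, 3 were called lower (Rgs1, Rgs10 and Rgs13), beside 6.09% of all genes, and 0 higher (0 also at an unadjusted p below 0.05), beside 5.84%. Between CBP-KO and p300-KO, 1 was called higher in CBP-KO (Rgs18), beside 4.79% of all genes, and 0 lower (1 at an unadjusted p below 0.05), beside 4.63%. With edgeR on the recovered reads, 4 of the 8 were called in CBP-KO (8.01% of all genes in either direction), 2 in p300-KO (11.9%) and 1 between the knockouts (9.23%). With DESeq2 they were 5 (12.4%), 3 (16.7%) and 1 (15.1%). The libraries of the groups did not overlap for 5 of 8 genes in CBP-KO against WT (16.9% of all genes), for 3 of 8 in p300-KO against WT (19.0%) and for 2 of 8 between the knockouts (31.0%). The median log2 difference over the 8 genes was -0.40 in CBP-KO and -0.12 in p300-KO, where the median over all genes tested was 0.01 and -0.01. Lower RNA per cell and fewer cells of a kind within the sorted gate cannot be told apart in bulk libraries.

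**Figure D1:**
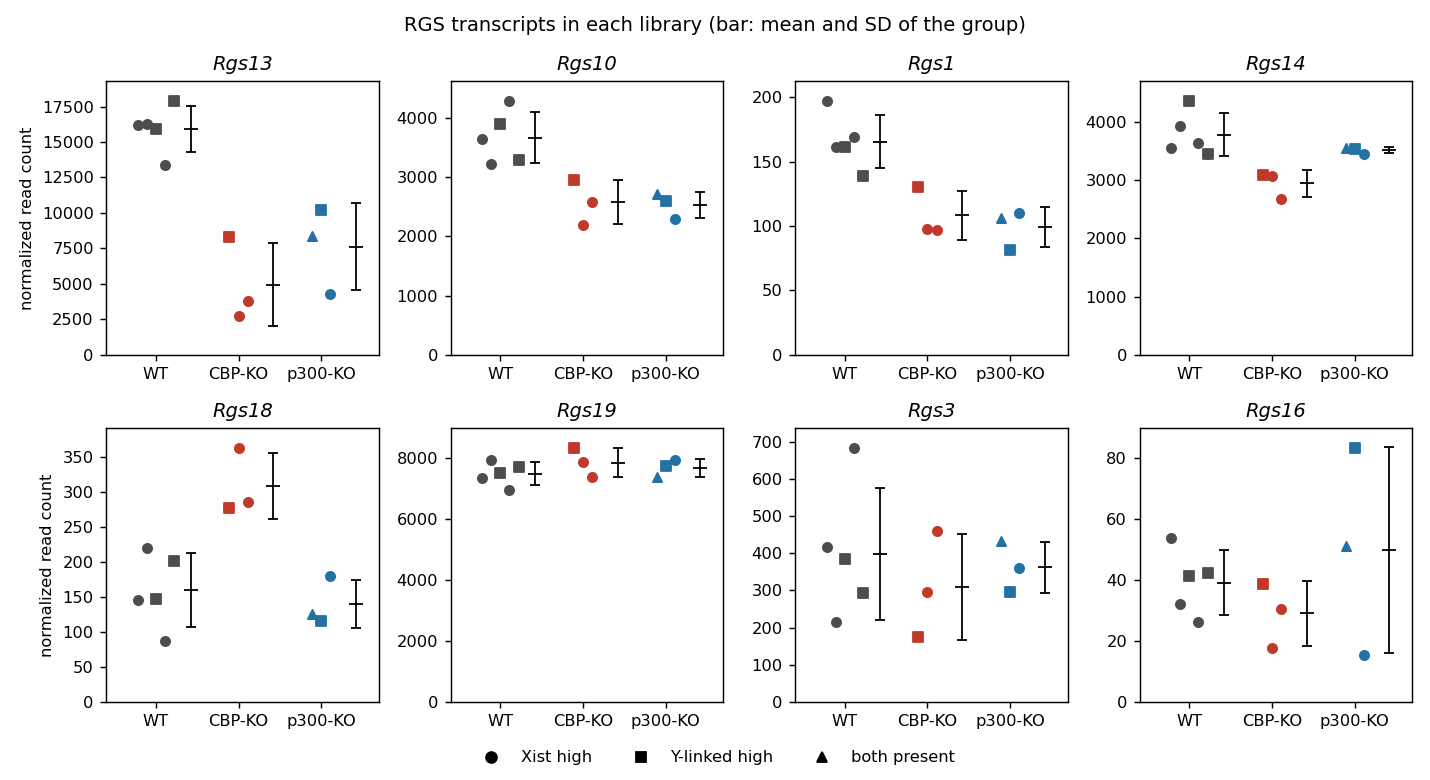
Normalized read counts (y axis) of the 8 RGS genes in each library by group (x axis), with the mean and SD of each group beside the points. Squares are libraries high in Y-linked transcripts, circles those high in Xist and the triangle p300-KO_18, which held both. The Rgs13 points of both knockouts lie at or below 10236, under all WT points, and the 3 Rgs18 points of CBP-KO lie above all other libraries.

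Rgs13, a short RGS protein known for its high level in germinal center B cells and for limiting responses to CXCR4 and CXCR5 ligands, showed the largest log2 difference from WT of the 8 genes in both knockouts. Its gene lies on the minus strand of chromosome 1 from 144138654 to 144177372 (GRCm38, the build also called mm10). Normalized reads per WT library were 16178 (WT_4), 16273 (WT_7), 15889 (WT_41), 13363 (WT_46) and 17869 (WT_288). In CBP-KO they were 8293 (CBP-KO_1), 2718 (CBP-KO_53) and 3816 (CBP-KO_55), while p300-KO had 8385 (p300-KO_18), 10236 (p300-KO_287) and 4242 (p300-KO_289). Every knockout library lay below every WT library. Within each knockout the libraries spread widely, and the highest one, CBP-KO_1 or p300-KO_287, was the one high in Y-linked transcripts. The part of sex in this spread was not tested within a group.

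The Rgs13 mean was 15914 ± 1622 in WT (SD, n = 5) and 4942 ± 2953 in CBP-KO (SD, n = 3), 31.1% of WT. The log2 difference was -1.84 (SE 0.32, 95% interval -2.53 to -1.16, limma adjusted p = 0.00391), and it was called under all 22 alternatives, at log2 values from -2.30 to -1.49. In p300-KO the mean was 7621 ± 3069 (SD, n = 3), 47.9% of WT. That log2 difference was -1.15 (SE 0.32, 95% interval -1.84 to -0.46, limma adjusted p = 0.0339). The p300-KO call was lost under 8 of 22 alternatives: without WT_4, WT_7, WT_41, WT_288, p300-KO_18 or p300-KO_289 in turn, without WT_46 and p300-KO_18 together, and with edgeR's quasi-likelihood test (adjusted p = 0.0550). It was lowest in size without p300-KO_289, at -0.77 (limma adjusted p = 0.156). With sex as a covariate and p300-KO_18 left out, the log2 differences were -1.80 in CBP-KO and -1.34 in p300-KO (limma adjusted p = 0.00132 and 0.0119).

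Between the knockouts Rgs13 was not called different (log2 of CBP-KO over p300-KO -0.69, 95% interval -1.46 to 0.07, limma adjusted p = 0.249), and the libraries overlapped. Without CBP-KO_1 the difference was -1.15 and was called (limma adjusted p = 0.0308).

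Rgs1, a B cell RGS protein induced by activation that restrains chemokine-driven migration, was called lower in p300-KO and missed the threshold in CBP-KO. It lies beside Rgs13 on the same strand, from 144242296 to 144249242. Normalized reads per WT library were 197 (WT_4), 161 (WT_7), 161 (WT_41), 169 (WT_46) and 139 (WT_288). CBP-KO gave 130 (CBP-KO_1), 97.4 (CBP-KO_53) and 97.2 (CBP-KO_55), while p300-KO had 106 (p300-KO_18), 81.5 (p300-KO_287) and 110 (p300-KO_289). All knockout libraries lay below all WT libraries, although CBP-KO_1 came close to WT_288. The values rest on 86 to 237 recovered reads per library.

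The Rgs1 mean was 165 ± 20.9 in WT, 108 ± 19.1 in CBP-KO and 99.3 ± 15.5 in p300-KO (SD, n = 5, 3 and 3). The p300-KO difference was -0.74 on the log2 scale (SE 0.18, limma adjusted p = 0.0177). It was not called without p300-KO_287 (limma adjusted p = 0.0823) or without WT_46 and p300-KO_18 together (limma adjusted p = 0.0558). The CBP-KO difference was -0.61 (95% interval -0.99 to -0.23, limma adjusted p = 0.0511), and 6 of 22 alternatives called it, among them DESeq2 on the recovered reads (adjusted p = 0.0232) and the fits without WT_288, CBP-KO_1 or p300-KO_287. Between the knockouts the difference was 0.12 (95% interval -0.30 to 0.55), with overlapping libraries.

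T cells and macrophages also express Rgs1, and markers of these and other cells were summed in each library. The 10 T cell markers summed to 278 to 374 in WT, 176 to 258 in CBP-KO and 258 to 317 in p300-KO, and 1 of the 5 tested (Lat) was called lower in CBP-KO and 0 in p300-KO. Lat held the largest part of the T cell sum in every library. The defining markers Cd3e and Cd3g were low throughout, with Cd3e at 0 in 9 of 11 libraries. The 12 macrophage markers summed to 1322 to 3163 in WT, 874 to 1193 in CBP-KO and 1158 to 1671 in p300-KO. The medians of these sums were 1350, 1071 and 1486. Cd68 and Csf1r were the largest of these markers in every library but WT_46, where Lyz2 was highest. Of 9 tested macrophage markers, Adgre1, C1qb and C1qc were called lower in CBP-KO and 0 in p300-KO. The 7 dendritic cell markers summed to 4319 to 5730 in WT, 2964 to 3489 in CBP-KO and 2635 to 2788 in p300-KO, nearly all of it Flt3, which was called lower in both (log2 -0.60 and -0.86), while Siglech and Cd209a were at or near 0. The 7 plasma cell markers summed to 73132 to 85327 in WT, 78935 to 92125 in CBP-KO and 87962 to 100970 in p300-KO. Of 6 tested plasma cell markers, Sdc1 (log2 1.60), Xbp1 (0.48) and Jchain (0.32) were called higher in p300-KO, and Slamf7 (0.26) was called higher and Irf4 (-0.73) lower in CBP-KO. Beside these marker calls, 4.88% of all genes tested were called lower and 3.48% higher in CBP-KO, and 6.09% and 5.84% in p300-KO. The part of these cells in the RGS differences was not tested.

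Rgs18, an R4 protein known best from platelets and megakaryocytes, was higher in CBP-KO than in the other groups. It lies on chromosome 1 from 144752683 to 144775435 on the minus strand. Normalized reads per WT library were 145 (WT_4), 220 (WT_7), 146 (WT_41), 86.7 (WT_46) and 201 (WT_288). CBP-KO libraries held 276 (CBP-KO_1), 362 (CBP-KO_53) and 286 (CBP-KO_55), while p300-KO had 125 (p300-KO_18), 116 (p300-KO_287) and 179 (p300-KO_289). The CBP-KO libraries lay above all others, and WT and p300-KO overlapped.

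The Rgs18 mean was 308 ± 46.9 in CBP-KO, 160 ± 52.6 in WT and 140 ± 34.2 in p300-KO (SD, n = 3, 5 and 3). CBP-KO exceeded WT by 1.0 on the log2 scale (SE 0.27, 95% interval 0.42 to 1.58, limma adjusted p = 0.0362). This call was lost under 10 of 22 alternatives, with log2 values from 0.80 to 1.14 and adjusted p up to 0.159, among them the fits without WT_4, WT_41, CBP-KO_1, CBP-KO_53, CBP-KO_55 or p300-KO_18. CBP-KO exceeded p300-KO by 1.15 (SE 0.30, 95% interval 0.50 to 1.8, limma adjusted p = 0.0319), a call lost under 6 of 22 alternatives: without any 1 of the CBP-KO libraries, p300-KO_18 or p300-KO_287, and with the sex covariate. The p300-KO difference from WT was -0.14 (95% interval -0.72 to 0.44, limma adjusted p = 0.800).

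Markers of platelets and megakaryocytes were low, with 7 of 10 at a mean under 10, and their sums overlapped between the groups. The 10 markers summed to 116 to 234 in WT, 126 to 202 in CBP-KO and 88.3 to 174 in p300-KO, and limma, edgeR and DESeq2 called 0 of the 3 tested in either comparison with WT (1 and 0 at an unadjusted limma p below 0.05). Pf4, a platelet chemokine, was at most 13.1 in any library. The part of platelets and megakaryocytes in the Rgs18 difference was not tested.

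Rgs3, whose long isoforms carry further domains beside the RGS domain, and Rgs16, an R4 protein induced by lymphocyte activation, were not called in any comparison. Rgs3 lies on chromosome 4 from 62559847 to 62704001 on the plus strand. Its normalized reads per WT library were 418 (WT_4), 214 (WT_7), 385 (WT_41), 683 (WT_46) and 293 (WT_288). In CBP-KO the values were 174 (CBP-KO_1), 296 (CBP-KO_53) and 460 (CBP-KO_55), while p300-KO had 432 (p300-KO_18), 296 (p300-KO_287) and 360 (p300-KO_289). The groups overlapped, and WT alone ranged more than 3-fold. The log2 difference was -0.36 in CBP-KO (95% interval -1.11 to 0.39, limma adjusted p = 0.602) and -0.04 in p300-KO (95% interval -0.80 to 0.71, limma adjusted p = 0.955).

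Rgs16 was the lowest of the 8, with 12 to 104 recovered reads per library, and lies on chromosome 1 from 153740349 to 153745468 on the plus strand. Its normalized reads per WT library were 53.8 (WT_4), 32.0 (WT_7), 41.2 (WT_41), 26.3 (WT_46) and 42.2 (WT_288). For CBP-KO they came to 38.6 (CBP-KO_1), 17.7 (CBP-KO_53) and 30.6 (CBP-KO_55), while p300-KO had 50.9 (p300-KO_18), 83.1 (p300-KO_287) and 15.4 (p300-KO_289). The 3 p300-KO libraries spanned the whole range of the data. The log2 difference was -0.45 in CBP-KO (95% interval -1.46 to 0.56) and 0.09 in p300-KO (95% interval -0.92 to 1.10), and the CBP-KO interval reaches past a 2-fold fall while the p300-KO interval reaches past a 2-fold rise. The library kit keeps no strand, and 236 bases (10.1%) of the Rgs16 exons are shared with the antisense gene Gm28513, whose reads cannot be told apart there.

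Rgs10, a short R12 protein that consists of little more than an RGS domain, was called lower in both knockouts by a similar size. Its gene is on the minus strand of chromosome 7 from 128373621 to 128418758. Normalized reads per WT library were 3647 (WT_4), 3231 (WT_7), 3909 (WT_41), 4289 (WT_46) and 3302 (WT_288). CBP-KO had 2951 (CBP-KO_1), 2201 (CBP-KO_53) and 2581 (CBP-KO_55), while p300-KO had 2715 (p300-KO_18), 2599 (p300-KO_287) and 2288 (p300-KO_289). All 6 knockout libraries lay below the lowest WT library, and the knockouts overlapped each other.

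The Rgs10 mean was 3675 ± 438 in WT (SD, n = 5), 2578 ± 375 in CBP-KO (SD, n = 3), 70.1% of WT, and 2534 ± 221 in p300-KO (SD, n = 3), 69.0% of WT. The log2 differences were -0.51 (SE 0.11, limma adjusted p = 0.0125) and -0.53 (limma adjusted p = 0.00776). The p300-KO difference was called under all 22 alternatives, which do not include a further threshold of 1.5-fold that it did not reach. The CBP-KO call was lost without CBP-KO_53 (limma adjusted p = 0.0766) or CBP-KO_55 (limma adjusted p = 0.0511). The direct difference between the knockouts was 0.02, with a 95% interval from -0.25 to 0.28.

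Rgs14, an R12 protein that also binds Ras family GTPases and inactive Gi alpha subunits, was called lower in CBP-KO. It lies on chromosome 13 from 55369732 to 55384687 on the plus strand. Normalized reads per WT library were 3547 (WT_4), 3940 (WT_7), 4359 (WT_41), 3636 (WT_46) and 3447 (WT_288). Those of CBP-KO were 3093 (CBP-KO_1), 3065 (CBP-KO_53) and 2684 (CBP-KO_55), while p300-KO had 3558 (p300-KO_18), 3531 (p300-KO_287) and 3459 (p300-KO_289). The CBP-KO libraries lay below all others, and the p300-KO libraries sat within the WT range.

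The Rgs14 mean was 3786 ± 370 in WT, 2947 ± 229 in CBP-KO and 3516 ± 51.4 in p300-KO (SD, n = 5, 3 and 3). CBP-KO was at 77.8% of WT (log2 difference -0.36, SE 0.08, limma adjusted p = 0.0144), a call lost without CBP-KO_55 (limma adjusted p = 0.0848). The p300-KO difference was -0.10 (95% interval -0.27 to 0.07, limma adjusted p = 0.465). The test of the knockouts against each other gave -0.26 (95% interval -0.45 to -0.07, limma adjusted p = 0.0865), so the CBP-KO and p300-KO effects on Rgs14 were not shown to differ.

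Rgs19, an RZ protein first found through its binding to a Gi alpha subunit, was not called in any comparison. It lies on chromosome 2 from 181688419 to 181693977 on the minus strand. Normalized reads ran from 6955 to 7936 in WT, from 7372 to 8327 in CBP-KO and from 7375 to 7932 in p300-KO. All 3 ranges overlapped. The mean was 7496 ± 372 in WT, 7857 ± 478 in CBP-KO and 7682 ± 283 in p300-KO (SD, n = 5, 3 and 3), and the intervals were the narrowest of the 8 genes. The log2 difference was 0.07 in CBP-KO (95% interval -0.06 to 0.19, limma adjusted p = 0.549) and 0.04 in p300-KO (95% interval -0.09 to 0.16).

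**Figure D2:**
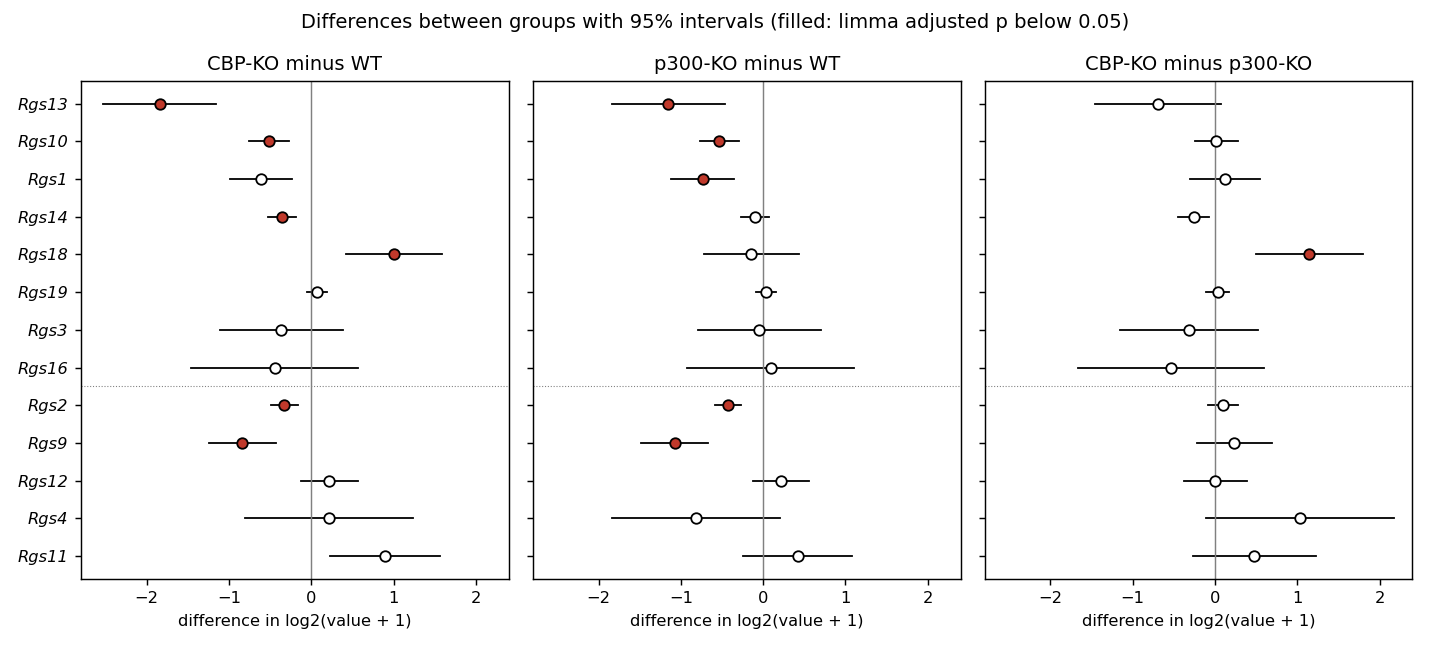
Log2 differences (x axis) with 95% intervals from limma for the 8 RGS genes and, under the dotted line, the 5 other tested RGS genes (y axis) in CBP-KO against WT, p300-KO against WT and CBP-KO against p300-KO, filled where the adjusted p was below 0.05. Of the 8, Rgs13 lies farthest from 0 in both comparisons with WT (-1.84 and -1.15), Rgs18 is the gene called higher (1.0 in CBP-KO), and the Rgs19 intervals are the narrowest.

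In exact two-sided permutation tests of single genes, the smallest p that 5 against 3 libraries allow (0.0179) was reached by Rgs1, Rgs10, Rgs13 and Rgs14 in CBP-KO and by Rgs1, Rgs10 and Rgs13 in p300-KO, and Rgs18 in CBP-KO gave 0.0357. Between the knockouts, 3 against 3 libraries allow no exact permutation p below 0.1, and Rgs14 and Rgs18 reached it. Both of these smallest p-values can arise only where the libraries do not overlap, so they restate the separation given above. That separation was found for 16.9% of all genes in CBP-KO against WT, 19.0% in p300-KO against WT and 31.0% between the knockouts. Permutation tests were run 39 times, over 13 RGS genes and 3 comparisons.

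Levels of different genes were compared as normalized reads per kilobase of annotated exon. In WT, Rgs13 stood at 9616 ± 980 per kilobase, followed by Rgs19 at 3362 ± 167, Rgs10 at 2148 ± 256 and Rgs14 at 893 ± 87.2 (SD, n = 5). Rgs18 followed at 78.6 ± 25.9, Rgs3 at 36.9 ± 16.5, Rgs1 at 23.8 ± 3.01 and Rgs16 at 16.7 ± 4.52. The order from Rgs13 down to Rgs18 held in all 5 WT libraries with no overlap between neighbours, while neighbours below Rgs18 overlapped. With the length of the longest protein-coding transcript, an alternative chosen after seeing the data, Rgs3 (84.8) moved above Rgs18 (78.6) and the other places stayed. Rgs10 (4176) and Rgs14 (1607) were also over 1.5 times higher by that length, as were Rgs3 and Rgs1 (43.1).

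Rgs13 made up a smaller part of the summed level of the 8 genes in the knockouts, which largely restates its lower level given above. It held 59.5% of the summed per-kilobase level of the 8 genes in WT (54.9% to 62.9% over libraries). CBP-KO shares were 44.0% (CBP-KO_1), 22.2% (CBP-KO_53) and 29.0% (CBP-KO_55), while p300-KO had 46.3% (p300-KO_18), 51.0% (p300-KO_287) and 30.5% (p300-KO_289). Every knockout library was below every WT library. The shares depend on the exon length used. By the longest protein-coding transcript, Rgs13 stood at 10300.5 and Rgs19 at 4961 per kilobase in WT, and shares by that length were not computed. Per kilobase, Rgs19 (3524 ± 214) stood above Rgs13 (2986 ± 1784) in CBP-KO on the mean and in 2 of 3 libraries, with overlapping ranges. In p300-KO, Rgs13 (4605 ± 1854) stayed above Rgs19 (3445 ± 127) on the mean and in 2 of 3 libraries, and their ranges overlapped too.

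**Figure D3:**
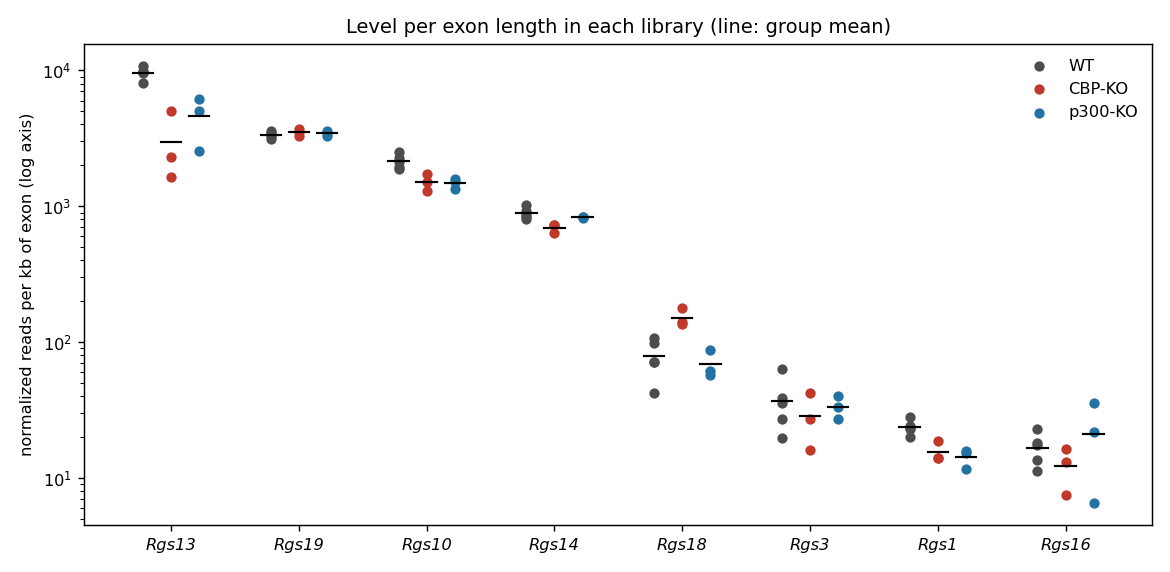
Normalized reads per kilobase of exon (y axis, log scale) of the 8 RGS genes (x axis) in every library, by group, with a line at each group mean. Rgs13 stands above Rgs19 in all 5 WT libraries and mixes with it in the knockouts, and Rgs18, Rgs3, Rgs1 and Rgs16 lie far below Rgs14.

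Rgs13, Rgs1 and Rgs18 lie on 1 stretch of chromosome 1 with Rgs2 and Rgs21, all on the minus strand, and the protein-coding genes annotated in its 776 kb were RGS genes. Rgs2, which acts mainly on Gq alpha subunits, lies 134 kb from Rgs13, and Rgs1 lies 64.9 kb from Rgs13 on its other side. Rgs21 had 0 reads in all libraries, and Rgs18 begins 503 kb beyond Rgs1. Along this stretch Rgs2 and Rgs13 were called lower in both knockouts, Rgs1 was called lower in p300-KO, and Rgs18 was called higher in CBP-KO.

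Rgs2 had a mean of 6868 ± 377 in WT, 5490 ± 594 in CBP-KO and 5120 ± 343 in p300-KO (SD, n = 5, 3 and 3). The log2 difference was -0.33 in CBP-KO (limma adjusted p = 0.0173, lost without CBP-KO_53 or CBP-KO_55) and -0.42 in p300-KO (limma adjusted p = 0.00321). The tested coding genes beside the stretch all lay on the Rgs2 side and were not called. Uchl5, the next of them, was at 0.06 in CBP-KO and -0.07 in p300-KO, and Cdc73 was at 0.20 and 0.04. The side beyond Rgs18 held no tested gene in the region examined. Glrx2 was at 0.14 in both, and B3galt2 at -0.23 and 0.18. Trove2 was at 0.82 and 0.80 (limma adjusted p = 0.0796 and 0.0731). The pseudogene Gm7266, between Rgs1 and Rgs21, was at -0.73 and -0.50 and was not called (limma adjusted p = 0.172 and 0.336).

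**Figure D4:**
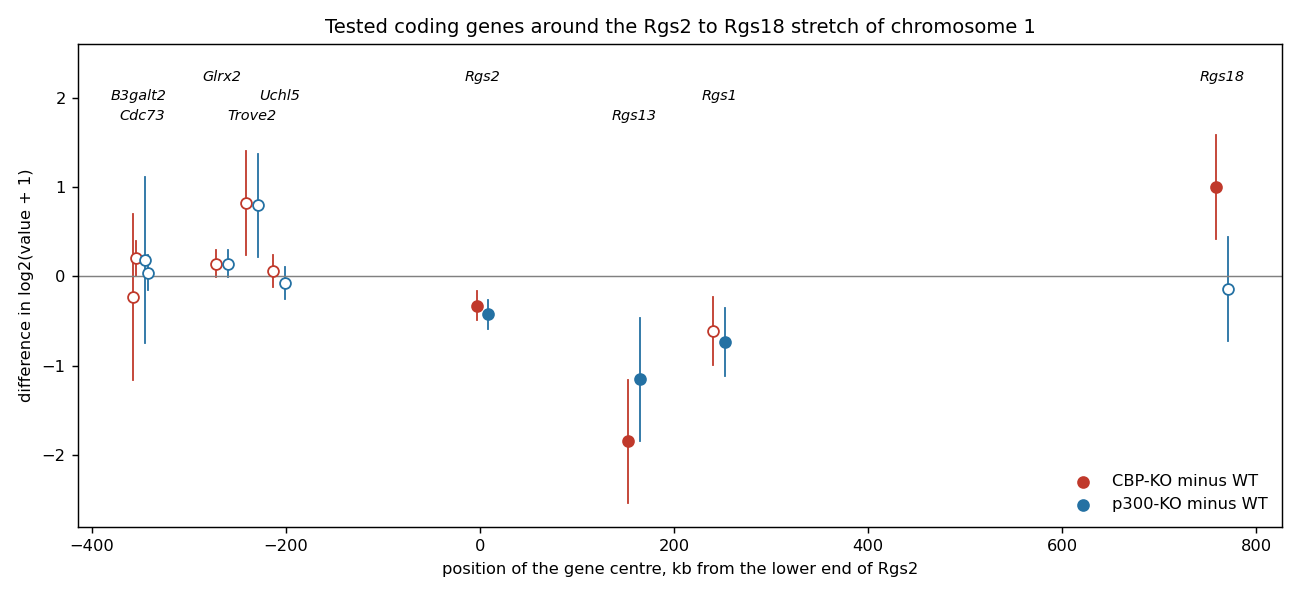
Log2 differences from WT (y axis, with 95% intervals) of tested coding genes along chromosome 1 by distance in kb from the lower end of Rgs2 (x axis), for CBP-KO and p300-KO, filled where the adjusted p was below 0.05. Rgs2 and Rgs13 lie below 0 in both comparisons, and Rgs18 lies at 1.0 in CBP-KO and -0.14 in p300-KO. The genes beside the stretch, all on the Rgs2 side, are unfilled.

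The other 13 RGS family genes in the table were mostly low. Of these, 8 had a mean under 10 and were not tested, and Rgs5, Rgs6 and Rgs21 had no read in any library. Among the 5 tested, Rgs2 and Rgs9 were called lower in both knockouts, beside 4.88% of all genes in CBP-KO and 6.09% in p300-KO. Rgs9, an R7 protein known from photoreceptors and striatal neurons, had a mean of 2789 ± 417 in WT, 1579 ± 417 in CBP-KO and 1347 ± 370 in p300-KO (SD, n = 5, 3 and 3). Its log2 difference was -0.84 in CBP-KO (limma adjusted p = 0.0161, lost without CBP-KO_53 or CBP-KO_55) and -1.08 in p300-KO (limma adjusted p = 0.00321, called under all 22 alternatives). Rgs4 (log2 0.22 in CBP-KO and -0.82 in p300-KO), Rgs11 (0.90 in CBP-KO, limma adjusted p = 0.0952, with 138 bases of exon shared with Arhgdig) and Rgs12 (0.22 and 0.21) were not called. Rgs12 was called in both without WT_46 (log2 0.36 and 0.35, limma adjusted p = 0.0417 and 0.0385).

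The genes with the most similar pattern were sought by Pearson's r of log2(value + 1) over the 11 libraries, among tested genes with a mean of at least 50. All libraries of 3 groups enter these values, so a shared difference between groups gives a high r. For Rgs13 they were Hdac7 (0.97), Fam118a (0.96), Gatm (0.95), Bbs12 (0.95) and Elk3 (0.94), and for Rgs10 they were Klhl6 (0.97), Grk6 (0.95), Smagp (0.95), Slc12a3 (0.95) and Vav2 (0.94). For Rgs1 they included B9d2 (0.94), Tmco4 (0.94), Cdk2ap2 (0.94) and Ddx41 (0.93). For Rgs14 they were Traf3ip2 (0.96), Ankrd11 (0.96), Irak2 (0.95), Dennd3 (0.94) and Mast3 (0.93). For Rgs18 they were Tpgs2 (0.96), Mapk6 (0.93), Rasl10a (0.92), Pitpnm2 (0.92) and Pdpk1 (0.92). Grk6, a kinase that phosphorylates active receptors and carries an RGS-like domain, was the only one of the genes named here that was also on a list of the pathway.

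Receptors of chemokines and other positioning cues give the signals that RGS proteins end. Of 18 tested chemokine and positioning receptors, 4 were called lower and 0 higher in CBP-KO, beside 4.88% and 3.48% of all genes tested. In p300-KO, 5 were called lower and 2 higher, beside 6.09% and 5.84%. Their median log2 difference was -0.23 in CBP-KO and -0.07 in p300-KO, where all genes had medians of 0.01 and -0.01. Cxcr5, the receptor for the follicular chemokine CXCL13, was lower in both: its mean was 18606 ± 2180 in WT, 13446 ± 1271 in CBP-KO and 13760 ± 820 in p300-KO (SD, n = 5, 3 and 3; log2 -0.46 and -0.43, limma adjusted p = 0.00900 and 0.0103). Gpr18, an orphan receptor of lymphocytes, was also lower in both (log2 -0.61 and -0.69). Ccr6 (-0.98) and Gpr132 (-1.12) were called lower in CBP-KO, and P2ry10 (-0.50) in p300-KO, where Cxcr3 was higher (1.82). Beyond the naming rule's picks from this list, Cxcr4 (-0.19) and P2ry12 (-1.07) were called lower and S1pr2 (0.18) higher in p300-KO. P2ry12 and S1pr2 were chosen after their values were seen, and the rule picked Cxcr4 from the dark zone genes. Of 8 ligand genes only Cxcl10 was tested, and it was not called.

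Of 10 tested G protein alpha subunits limma called 0 in CBP-KO (2 at an unadjusted p below 0.05, 0 with edgeR and 0 with DESeq2), and 1 was called lower in p300-KO, Gna13 (log2 -0.28), which couples receptors to RhoA. Gnai2, the main Gi alpha subunit of lymphocytes, was at 58863 ± 3425 in WT, 59704 ± 2005 in CBP-KO and 57318 ± 2522 in p300-KO (SD, n = 5, 3 and 3) and was not called. Of 11 tested beta and gamma subunits, Gnb3 (-1.16) and Gng7 (-0.67) were called lower in CBP-KO. In p300-KO Gnb3 (-1.04), Gng7 (-1.10) and Gng12 (-0.40) were called lower and Gnb5 (0.64), the partner of R7 proteins such as Rgs9, was called higher. Of all genes tested, 4.88% were called lower and 3.48% higher in CBP-KO, and 6.09% and 5.84% in p300-KO.

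Of 21 tested effectors, 2 were called lower in CBP-KO, Pik3r5 (-1.26) and Rasgrp2 (-0.34). In p300-KO, Elmo1 (-0.35) and Rap1a (-0.34) were called lower and Pik3r5 (0.79) higher. Of 13 other tested proteins with an RGS-like domain, Grk6 was called lower in CBP-KO and p300-KO (-0.17 in each). Grk2 (-0.37), a kinase that desensitizes receptors, was called lower and Snx14 (0.43) and Grk4 (0.88) higher in p300-KO. Of 8 other regulators, Gpsm3 (-0.23) was called lower in CBP-KO and Gpsm2 (-0.25) in p300-KO. These counts stand beside 4.88% of all genes called lower and 3.48% higher in CBP-KO, and 6.09% and 5.84% in p300-KO.

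Genes of the germinal center zones were counted beside these. Of 16 light zone genes, 9 were called lower in CBP-KO (median log2 -0.58) and 0 in p300-KO (median 0.00), where 2 had an unadjusted limma p below 0.05 and edgeR and DESeq2 called 0. Of 12 dark zone genes, 1 was called higher in CBP-KO (Ccnb2, 0.23) and 1 lower in p300-KO (Cxcr4). Over all genes tested, 4.88% were called lower and 3.48% higher in CBP-KO, and 6.09% and 5.84% in p300-KO. The part of zone composition in the RGS differences was not tested.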

How the data were processed

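RNA sequencing libraries of 11 mice were grouped by their labels as 5 WT, 3 CBP-KO and 3 p300-KO. The deposited signal values were made by the authors from gene read counts by dividing each library by 1 DESeq2 size factor. The submitters' processing notes also name CASAVA 1.8, HISAT2, featureCounts and the build mm10, without settings. TruSeq RNA v2 libraries keep no strand, per the labels' protocols.

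Dividing each column by its smallest step gave whole numbers for 100% of values (tolerance 1e-06), which are the recovered reads, and their sum is the depth. Tests covered the 16515 of 48593 genes whose mean reached 10, using limma 3.58.1 (variance trend, log2(value + 1), a pseudocount of 1, 1 mean per group, two-sided, Benjamini-Hochberg). Fold changes on that scale understate the change of low genes. No covariate was used. Adjusted p-values are limma's over all tested genes unless another tool is named. The counts were also tested with edgeR 4.0.16 and DESeq2 1.42.0. Changes of the pseudocount, filter, scaling, weights, libraries, a sex covariate and the threshold were tried, as was leaving out each library in turn. The procedure was tested on simulated data.

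Named genes were the 8 RGS genes, other RGS genes with a mean of at least 10, up to 4 genes per list and comparison with the smallest p, the 5 genes most correlated with each called member (mean of at least 50), neighbours, Crebbp and Ep300. Not every gene picked this way is reported here. Members and lists were chosen with earlier results of these data known. Positions and exon lengths are from GENCODE M21, matched for 99.4% of tested genes, which may not be the annotation the authors counted with. Software was Python 3.11.15 (pandas 2.3.3, matplotlib 3.10.9) and R 4.3.3.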

Additional observations from a re-analysis of the deposited data

Results flagged for a closer look

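Rgs12, an R12 family protein and relative of Rgs10 and Rgs14, stood at 1183 normalized reads in WT_46, apart from 659 to 783 in the other 4 WT libraries. The gap to the nearest library was 0.762 of the WT range, above Dixon's 95% critical value of 0.71 for 5 samples. Such a gap arises by chance in about 1 in 20 groups, and 13 RGS genes were examined.

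Rgs18 differed between the knockouts: relative to p300-KO, CBP-KO was higher by 1.15 on the log2 scale (limma adjusted p = 0.0319), higher in 3 of 3 CBP-KO libraries than in any p300-KO library. Libraries of the 2 knockouts did not overlap for 31.0% of all genes, and the Rgs18 call was lost under 6 of 22 alternatives.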

How the results depend on the processing

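Rgs13 in CBP-KO and Rgs10 in p300-KO were called under all 22 alternatives. These do not include the further threshold of 1.5-fold, which Rgs10 in p300-KO (log2 -0.53) did not reach. The number of RGS genes called, 4 in CBP-KO and 3 in p300-KO against WT and 1 between the knockouts, ranged from 1 to 5, from 2 to 3 and from 0 to 1 when single libraries were left out. It was lowest in CBP-KO without CBP-KO_55 (1) and CBP-KO_53 (2). At the further threshold of 1.5-fold the number was 2 in CBP-KO and 2 in p300-KO. It was 1 in p300-KO without WT_46 and p300-KO_18, and 0 between the knockouts with the sex covariate. Over all genes, single libraries left out gave 642 to 1541 calls in CBP-KO (1380 with all), 1169 to 2027 in p300-KO (1970) and 745 to 1954 between the knockouts (1556). Array weights gave 2730 in CBP-KO and 2808 between the knockouts, where DESeq2 gave 2350 and the sex covariate 913. The 1.5-fold threshold gave 626, 809 and 647.

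Differences that were never called changed sign in places. With array weights, Rgs4 in CBP-KO was -0.36, Rgs3 in p300-KO 0.24, Rgs16 in p300-KO -0.11, and between the knockouts Rgs1 was -0.0175 and Rgs10 -0.0806. Without WT_46 and p300-KO_18, Rgs3 in p300-KO was 0.0416 and Rgs16 -0.20, and with the sex covariate Rgs16 was -0.15. Quantile normalization gave -7e-04 for Rgs19 between the knockouts. Leaving out single libraries gave -0.19 to 0.79 for Rgs4 in CBP-KO, and -0.24 to 0.18 for Rgs3 and -0.42 to 0.76 for Rgs16 in p300-KO. Between the knockouts it gave -0.0165 to 0.20 for Rgs1, -0.66 to 0.0426 for Rgs3, -0.0845 to 0.13 for Rgs10 and -0.0112 to 0.0766 for Rgs19. The cause was not tested for any of these changes. No paired analysis was possible because no library number occurs in more than 1 group. The lowest read numbers per library lie behind Rgs16 (12 to 104 reads), Rgs1 (86 to 237) and Rgs18 (66 to 368).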

Other observations

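Pik3r5, a regulatory subunit of the phosphoinositide 3-kinase that G protein beta gamma subunits activate, was called in opposite directions in the knockouts. It was at 177 ± 28.0 normalized reads in WT, 77.2 ± 33.5 in CBP-KO and 307 ± 45.9 in p300-KO (SD, n = 5, 3 and 3). The log2 difference of CBP-KO from p300-KO was -2.05 (limma adjusted p = 0.000573), and the 3 groups did not overlap.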
